A study of Bos taurus with 12 samples.

Results

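The miR-146 family of cattle has 2 members with an entry in the deposited counts, bta-miR-146a and bta-miR-146b, out of 755 mature miRNA names in all. They were chosen by name, and each had 1 precursor entry, so that neither count was split between precursors. Small RNA had been sequenced from granulosa cells, the somatic cells that line the ovarian follicle around the oocyte, in 12 libraries with 3 biological replicates per group. The groups were subordinate follicles (SF) and dominant follicles (DF), each collected early in the estrous cycle on day 3 or day 7. The animals were estrus-synchronised Simmental heifers, with different heifers on each day, no other treatment, and no age in the labels. Follicles were classed by size, and the size limits of both classes were higher at day 7 than at day 3. Day and follicle size therefore cannot be told apart in comparisons between the days or in the interaction of class and day. The cells came from follicular fluid pooled by follicle size. The authors counted far more follicles in SF than in DF on both days. The fewest were in DF at day 7, no more than the libraries of that group. A library of DF at day 7 may thus hold a single follicle, while libraries of SF pooled many. The labels do not tie a replicate number to an animal. The same 3 libraries of a group entered each comparison made with it, so those comparisons are not independent.

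miRNAs are short RNAs that bind partly complementary sites in messenger RNAs and lower their translation or stability. Those of the miR-146 family share a seed, the stretch near the 5′ end that pairs with the target. Both are induced by inflammatory signals, miR-146a through the transcription factor NF-kappaB, and their best known targets are TRAF6 and IRAK1, adaptors through which Toll-like and interleukin-1 receptors activate that factor, so that the family is known as a brake on inflammatory signalling. It is abundant in immune cells, and it is also expressed in other cell types, granulosa cells among them. In the RefSeq annotation of the ARS-UCD2.0 assembly the members lie on different chromosomes, MIR146A between the protein-coding genes PTTG1 and ATP10B, and MIR146B between CUEDC2 and C26H10orf95 with NFKB2, which encodes a subunit of NF-kappaB, a few genes away.

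The libraries held 160418 to 405129 miRNA reads. DF day 7 replicate 2 was the smallest of them and also held the most reads of both members, so the fold changes of the family that rest on it are given without it as well. The levels below are normalized read counts, which are raw reads divided by a size factor of each library. The miRNAs used as a check of the cell type, bta-miR-202, bta-miR-383 and bta-miR-224 of the gonad, summed to 2326 to 3806 normalized counts in the libraries of SF day 3, DF day 3 and SF day 7 and to 371 to 991 in DF day 7, where bta-miR-383 had no read. Markers of epithelium summed to at most 21.5 in any library. In bulk samples such as these, fewer cells of a type and less of an RNA per cell cannot be told apart.

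bta-miR-146a was detected in all 12 libraries, with 64 to 838 raw reads. At day 3 its normalized count was 94.5, 90.2 and 105 in the 3 replicates of SF, with a mean of 96.6 ± 7.65 (SD, n = 3). In DF of the same day it was 73.6, 98.4 and 62.5, with a mean of 78.2 ± 18.4 (SD, n = 3). The 6 libraries of day 3 thus lay within a narrow range, and those of SF and DF overlapped. At day 7 the count was 126, 309.5 and 123 in SF, a mean of 186 ± 107 (SD, n = 3) in which replicate 2 stood above the other two. In DF at day 7 it was 618, 1394 and 256, a mean of 756 ± 581 (SD, n = 3). All 3 libraries of DF at day 7 were above all 6 libraries of day 3, while the lowest of them was below the highest library of SF at day 7.

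bta-miR-146b was the more abundant member in every library, with 135 to 3195 raw reads. At day 3 its normalized count was 223, 182 and 365 in SF, with a mean of 257 ± 96.3 (SD, n = 3). In DF at day 3 it was 139.8, 158 and 156, with a mean of 151 ± 10.2 (SD, n = 3), and each of these was below each library of SF. At day 7 it was 323, 469 and 589 in SF, with a mean of 460.2 ± 133 (SD, n = 3). In DF at day 7 it was 2237, 5314 and 829, with a mean of 2794 ± 2294 (SD, n = 3). The libraries of DF at day 7 were above all the other 9 libraries. Replicate 2 was the highest and replicate 3 the lowest of them for both members.

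**Figure D1:**
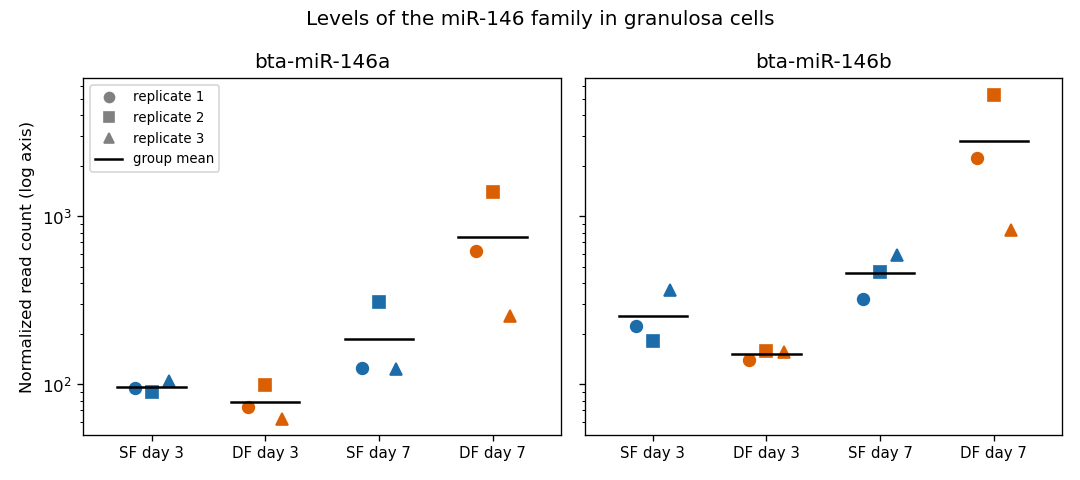
Normalized read counts of bta-miR-146a and bta-miR-146b on a log axis, with 1 point per library, the shape giving the replicate, blue for SF and orange for DF, and a line at each group mean. The means rise in the order DF day 3, SF day 3, SF day 7, DF day 7 for both members, from 78.2 to 756 for bta-miR-146a and from 151 to 2794 for bta-miR-146b.

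Set against the whole library, bta-miR-146a took from 0.0274% of the reads in DF day 3 replicate 3 (95% exact binomial interval 0.0212 to 0.0350) to 0.522% in DF day 7 replicate 2 (0.488 to 0.559). bta-miR-146b took from 0.0533% in DF day 3 replicate 1 (0.0459 to 0.0615) to 1.99% in DF day 7 replicate 2 (1.92 to 2.06). These intervals cover counting error only. Reads made by PCR are not independent molecules, so even that error may be larger than the intervals show. By abundance within a library, bta-miR-146a ranked between 103 and 115 in the libraries of day 3, between 66 and 97 in SF at day 7 and between 35 and 77 in DF at day 7. bta-miR-146b ranked between 57 and 82 at day 3, between 46 and 62 in SF at day 7 and between 13 and 47 in DF at day 7.

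To see how the family differed between the days in dominant follicles, DF at day 7 was compared with DF at day 3, which had lower size limits. Both members were increased at day 7, bta-miR-146a by 9.57-fold and bta-miR-146b by 18.4-fold. The log2 fold change of bta-miR-146a was 3.26 (SE 0.49, 95% interval 2.21 to 4.30, edgeR quasi-likelihood test with Benjamini-Hochberg adjusted p = 9.00e-05). That of bta-miR-146b was 4.20 (SE 0.52, interval 3.09 to 5.32, edgeR adjusted p = 1.64e-05). A miRNA counts as called, here and below, when the log2 fold change is 1 or more in size, p is not above 0.05 and the false discovery rate is not above 10%. By this rule 24.4% of the 360 miRNAs tested were called higher in DF at day 7 and 40.3% were called in either direction, so a call by itself was common in this comparison. The replicates of the 2 groups did not overlap for either member, as was the case for 50.0% of the miRNAs tested. Ordered from the highest log2 fold change, bta-miR-146b came at rank 24 and bta-miR-146a at rank 42. Without DF day 7 replicate 2 the log2 fold changes were 2.44 and 3.31 for bta-miR-146a and bta-miR-146b, and both calls held.

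In the subordinate follicle the same days differed much less. Between SF at day 7 and SF at day 3 the log2 fold change was 0.97 for bta-miR-146a (SE 0.34, interval 0.25 to 1.69, edgeR adjusted p = 0.231) and 0.87 for bta-miR-146b (SE 0.27, interval 0.30 to 1.43, edgeR adjusted p = 0.151). Neither was called, in a comparison in which 0.593% of the 337 miRNAs tested were called, 0.297% as higher at day 7. These 2 calls became 0 to 20 when single libraries were left out, with 0 without SF day 7 replicate 2 and 20 without SF day 7 replicate 1. The intervals still allow a fold change past the threshold of 1 on the log2 scale. The libraries of bta-miR-146a did not overlap between the days, which held for 13.9% of the miRNAs tested, and those of bta-miR-146b did. SF day 7 replicate 2 decided the size of the difference of bta-miR-146a, which was 0.35 without it (edgeR adjusted p = 0.735). Without SF day 7 replicate 1, in contrast, both members were called, with log2 fold changes of 1.17 and 1.05 for bta-miR-146a and bta-miR-146b, and bta-miR-146b was also called without SF day 3 replicate 3, at 1.19.

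For the question of how the follicle classes differ, SF was compared with DF on each day, and a positive log2 fold change means higher in SF. At day 3 bta-miR-146b was 1.64-fold higher in SF, with a log2 fold change of 0.71 (SE 0.20, interval 0.30 to 1.13, edgeR adjusted p = 0.0196) and no overlap of the libraries. This is past the false discovery rate but under the fold change that a call needs. It rested on SF day 3 replicate 3, without which the log2 fold change was 0.37 (edgeR adjusted p = 0.268), and the adjusted p was 0.419 with all 12 samples in one fit. The log2 fold change of bta-miR-146a was 0.25 (SE 0.21, interval -0.17 to 0.67, edgeR adjusted p = 0.510), within the spread of the replicates. Of the 335 miRNAs tested, 5.67% were called in this comparison, 3.88% as higher in SF, and 27.8% had libraries that did not overlap.

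At day 7 the order of the classes was the opposite, and both members were lower in SF than in DF. bta-miR-146a was 3.89-fold lower, a log2 fold change of -1.96 (SE 0.60, interval -3.30 to -0.62, edgeR adjusted p = 0.0317). bta-miR-146b was 5.89-fold lower, at -2.56 (SE 0.58, interval -3.85 to -1.26, edgeR adjusted p = 0.00774). Of the 350 miRNAs tested, 18.3% were called lower in SF and 33.4% were called in either direction. The libraries of bta-miR-146b did not overlap between the classes, nor did those of 45.7% of the miRNAs tested, while those of bta-miR-146a overlapped. Within each pair of equal replicate numbers, which deviated together at this day, SF was the lower for both members. With the replicate number as a block the log2 fold changes were -1.78 and -2.23 for bta-miR-146a and bta-miR-146b, and both were called. Without the block, the call of bta-miR-146a depended on single libraries. Without DF day 7 replicate 2 its log2 fold change was -1.15 (edgeR adjusted p = 0.163), and without SF day 7 replicate 1 or replicate 3 it was -1.73 or -1.74 and likewise not called. bta-miR-146b was called without any 1 of the 6 libraries, between -3.00 and -1.66.

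The change of the class difference from day 3 to day 7 was tested by itself as the interaction of follicle class and day over all 12 libraries. It was -2.32 on the log2 scale for bta-miR-146a (SE 0.66, interval -3.71 to -0.92, edgeR adjusted p = 0.0140). For bta-miR-146b it was -3.36 (SE 0.65, interval -4.73 to -1.99, edgeR adjusted p = 0.000928). In other words, the ratio of day 7 to day 3 was 4.98-fold smaller in SF than in DF for bta-miR-146a and 10.3-fold smaller for bta-miR-146b. The interaction was called for both, as for 26.5% of the 378 miRNAs tested, 14.3% with a negative sign. Both calls held without any 1 of the 12 libraries. The highest edgeR adjusted p in these fits was 0.0913 for bta-miR-146a, close to the limit, and 0.00476 for bta-miR-146b. Without DF day 7 replicate 2 the log2 values were -1.50 and -2.47 for bta-miR-146a and bta-miR-146b.

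**Figure D2:**
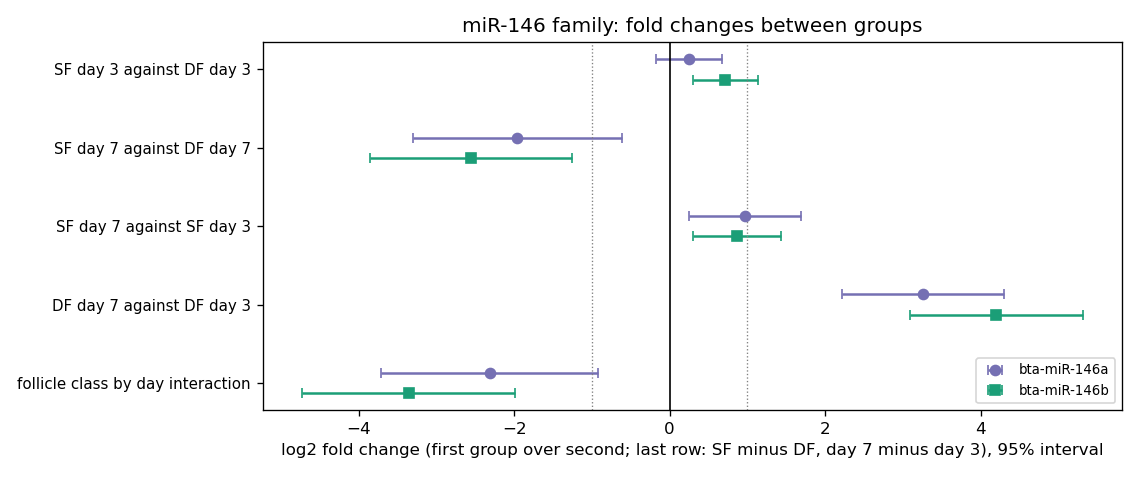
Log2 fold changes of both members in the 4 comparisons and the interaction of follicle class and day, with 95% intervals; dotted lines mark the threshold of 1 in either direction. Both members are called in the 2 comparisons with DF at day 7 and in the interaction and in neither of the others, and the values farthest from 0 are 3.26 and 4.20, between DF at day 7 and DF at day 3.

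The levels of the 4 groups had the same order for both members, from DF day 3 to SF day 3, SF day 7 and DF day 7. Of the neighbours in this order, DF and SF of day 3 were not called apart for either member, nor were SF of day 3 and SF of day 7. SF and DF of day 7 were called apart for both. Across 1 step, SF at day 7 was above DF at day 3 by a log2 fold change of 1.56 for bta-miR-146b (SE 0.22, edgeR adjusted p = 0.00447) and by 1.23 for bta-miR-146a (SE 0.38, edgeR adjusted p = 0.0983), where 4.66% of the 343 miRNAs tested were called in this direction. The value of bta-miR-146a is close to the limit, and its call was lost without any 1 of 5 of the 6 libraries, the exception being SF day 7 replicate 1. Without SF day 7 replicate 2 it was 0.60. DF at day 7 was above SF at day 3 by 2.93 for bta-miR-146a (edgeR adjusted p = 0.000573) and by 3.42 for bta-miR-146b (edgeR adjusted p = 0.000468), where 19.3% of the 352 miRNAs tested were called in this direction. Without DF day 7 replicate 2 these were 2.16 and 2.56, both called.

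The members were also compared with each other, as the ratio of their reads within a library, which needs no scaling between libraries. Ligation and amplification can favour one sequence over another, so the ratio is compared between groups and is not read as a ratio of molecules. There were 2.36, 2.01 and 3.48 reads of bta-miR-146b per read of bta-miR-146a in SF at day 3, and 1.90, 1.61 and 2.50 in DF at day 3. The ratio was 2.57, 1.52 and 4.79 in SF at day 7, the widest spread of any group, and 3.62, 3.81 and 3.23 in DF at day 7, the narrowest. In DF the libraries of day 7 were all above those of day 3, by 0.85 in the mean log2 ratio (exact permutation test, two-sided, p = 0.1, the smallest that 3 against 3 libraries can give, adjusted p = 0.4 over 4 comparisons). The difference was 0.37 between SF and DF at day 3 (exact permutation p = 0.3), -0.42 between SF and DF at day 7 (exact permutation p = 0.5) and 0.06 between the days in SF (exact permutation p = 0.9). With 3 libraries a group, no difference in the ratio could reach p of 0.05.

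**Figure D3:**
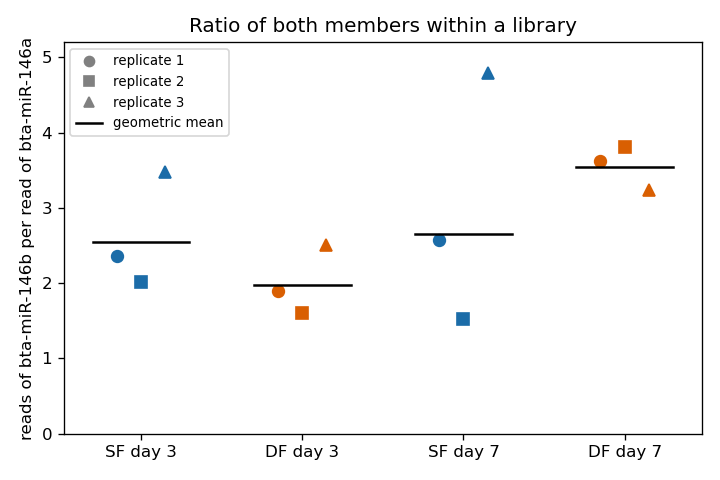
Reads of bta-miR-146b per read of bta-miR-146a in each library, on a linear axis from 0, with the shape giving the replicate, blue for SF and orange for DF, and a line at the geometric mean of each group. The geometric means are 2.55 in SF day 3, 1.97 in DF day 3, 2.65 in SF day 7 and 3.55 in DF day 7, and the 3 libraries of DF day 7 lie close together between 3.23 and 3.81.

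The replicates of DF at day 7 differed widely in the family. The highest library was 5.43 times the lowest for bta-miR-146a and 6.41 times for bta-miR-146b, against a median of 1.55 over 186 miRNAs of at least 10 normalized counts on average in that group. They held ranks 10 and 9 of the 186 by this measure. DF at day 7 also came from the fewest follicles, no more than its libraries, while libraries of SF pooled many. Comparisons of DF at day 7 with SF thus also differ in pooling. The part of pooling in this spread was not tested. The 4 miRNAs listed as markers of leukocytes are known to be abundant in those cells. In normalized counts they varied among the replicates of DF at day 7 in the order of the family. Raw reads were few for bta-miR-142-3p (5, 4 and 1 in replicates 1, 2 and 3) and bta-miR-223 (6, 5 and 5). For these, replicate 2 was highest only after scaling. The order was not particular to leukocyte markers, since bta-miR-125b, bta-miR-451 and bta-miR-486 had it too. Its share among all miRNAs was not counted. bta-miR-142-5p, the most abundant of these markers, was at 2636, 6845 and 643 normalized counts in replicates 1, 2 and 3 of DF at day 7, against 92.8 to 128 in DF at day 3. bta-miR-150, a miRNA of mature lymphocytes, was at 465, 1776 and 135 in DF at day 7 and at 13.4 to 34.6 in DF at day 3. bta-miR-223, of myeloid cells, was near 0 at day 3 and at 5.13, 8.32 and 4.50 in DF at day 7. bta-miR-142-3p had no read in any library of day 3 and 0.900 to 6.65 normalized counts in DF at day 7.

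Summed over the 4 leukocyte markers, the level was 108 to 220.2 in SF at day 3, 116 to 162 in DF at day 3, 184 to 705 in SF at day 7 and 783 to 8636 in DF at day 7. All 4 were called higher in DF at day 7 than at day 3, against 24.4% of all miRNAs tested. With all libraries of both groups, the log2 fold changes were 4.97 for bta-miR-142-5p and 4.87 for bta-miR-150. The 4 calls held without replicate 2 of DF at day 7. In SF against DF at day 7, 3 of 4 were called lower (2 without that library), against 18.3% of all miRNAs tested. The median log2 fold change was 4.87 between the days in DF over the 3 markers with reads on both, against 0.05 over all miRNAs tested, and -3.21 between SF and DF at day 7, against -0.05. In edgeR no marker of the 3 tested was called between SF and DF at day 3, where 0 had an unadjusted p under 0.05, or between the days in SF, where 2 had, and DESeq2 called 0 in both. In SF between days, 2 were called without a filter on low counts, 1 with all precursor entries and 2 without SF day 7 replicate 1. The highest library of SF at day 7 in this sum was replicate 2, which was also the library of SF with the most bta-miR-146a, but not the one with the most bta-miR-146b. Per count of the 4 markers together, bta-miR-146a was at 0.429 to 0.852 in the libraries of day 3, at 0.439 to 0.681 in SF at day 7 and at 0.161 to 0.328 in DF at day 7. bta-miR-146b was at 0.861 to 2.25 at day 3, at 0.666 to 2.82 in SF at day 7 and at 0.615 to 1.06 in DF at day 7. Against DF at day 3, all 3 libraries of DF at day 7 were lower in this measure for bta-miR-146a, and they overlapped for bta-miR-146b. The part of leukocytes in the change of the family was not tested.

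Markers of other cell types were examined in the same way. bta-miR-143 and bta-miR-145, of smooth muscle and stroma, summed to 2206 to 3894 in DF at day 3 and to 6723 to 14191 in DF at day 7. Of these, 2 of 2 were called higher at day 7. Among the libraries of DF at day 7 their sum was lowest in replicate 2, the one with the most miR-146. The 3 erythrocyte markers summed to 737 to 1087 in DF at day 3 and to 1296, 2322 and 808 in replicates 1, 2 and 3 of DF at day 7, the order of the family, with 0 of 3 called by edgeR between these days (1 at an unadjusted p under 0.05) and 2 of 2 tested called lower in SF than in DF at day 7. The endothelial bta-miR-126-3p and bta-miR-126-5p summed to 61.6 to 101 in DF at day 3 and to 130.0 to 160.2 in DF at day 7, with 1 of 2 called. Of the gonadal markers, 2 of 3 were called lower in DF at day 7 than at day 3, and 3 of 3 were called higher in SF than in DF at day 7. Between the days in DF, 24.4% of all miRNAs tested were called higher at day 7 and 40.3% in either direction. Between SF and DF at day 7, 18.3% were called lower in SF and 33.4% in either direction. The part of these cell types was not tested either.

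miRNAs that other work ties to inflammatory signalling were taken as a list of 12, to set the family beside them. The list was chosen with earlier results of these data known, so its counts and medians describe and do not test. In DF at day 7 against day 3, 8 of the 11 tested were called higher (9 without DF day 7 replicate 2). The share called higher over all miRNAs tested was 24.4%. Of the 8, 1 was also a leukocyte marker (bta-miR-223). The other 3 of the 11 did not pass, and the list had a median log2 fold change of 3.23 against 0.05 over all miRNAs tested. bta-miR-155, which is induced by the same kind of signal and acts in lymphocytes and macrophages, rose by 7.23 on the log2 scale (SE 0.34), from 21.4 to 35.2 normalized counts at day 3 to 2937 to 5215 at day 7. bta-miR-21-5p, an abundant miRNA linked to cell survival in granulosa cells and many others, rose by 5.62, and bta-miR-21-3p from the same precursor by 6.61. bta-miR-221 and bta-miR-222, made from neighbouring precursors and known to target cell cycle inhibitors, rose by 7.00 and 6.93. bta-miR-132, which follows CREB signalling, rose by 2.68, bta-miR-223 by 3.23 and bta-miR-9-5p by 2.59, the last from at most 0.611 to at most 2.70 normalized counts. bta-miR-212, bta-miR-147 and bta-miR-125b were not called, at 1.73, -0.39 and 0.66.

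Both members of the miR-146 family thus had smaller fold changes in DF than bta-miR-155, bta-miR-21-5p, bta-miR-21-3p, bta-miR-221 and bta-miR-222. At 3.26 and 4.20 on the log2 scale, they were above the other listed miRNAs tested. Of those, bta-miR-223 was highest at 3.23, close to bta-miR-146a. The members also spread more widely among the replicates of DF at day 7. There the highest library was 1.78 times the lowest for bta-miR-155, 1.45 times for bta-miR-21-5p, 2.47 times for bta-miR-221 and 2.22 times for bta-miR-222. bta-miR-155, bta-miR-221 and bta-miR-222 had the replicate order of the family, highest in replicate 2 and lowest in replicate 3. So did bta-miR-125b of the same list, and bta-miR-223 at few reads. bta-miR-21-5p was lowest in replicate 2, at 29826 normalized counts, and highest in replicate 3, at 43268, the opposite of the order of bta-miR-146a and bta-miR-146b. Like bta-miR-21-5p, bta-miR-21-3p, bta-miR-132 and, at few reads, bta-miR-9-5p were lowest in replicate 2 and highest in replicate 3. These differences between miRNAs are described and were not tested.

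**Figure D4:**
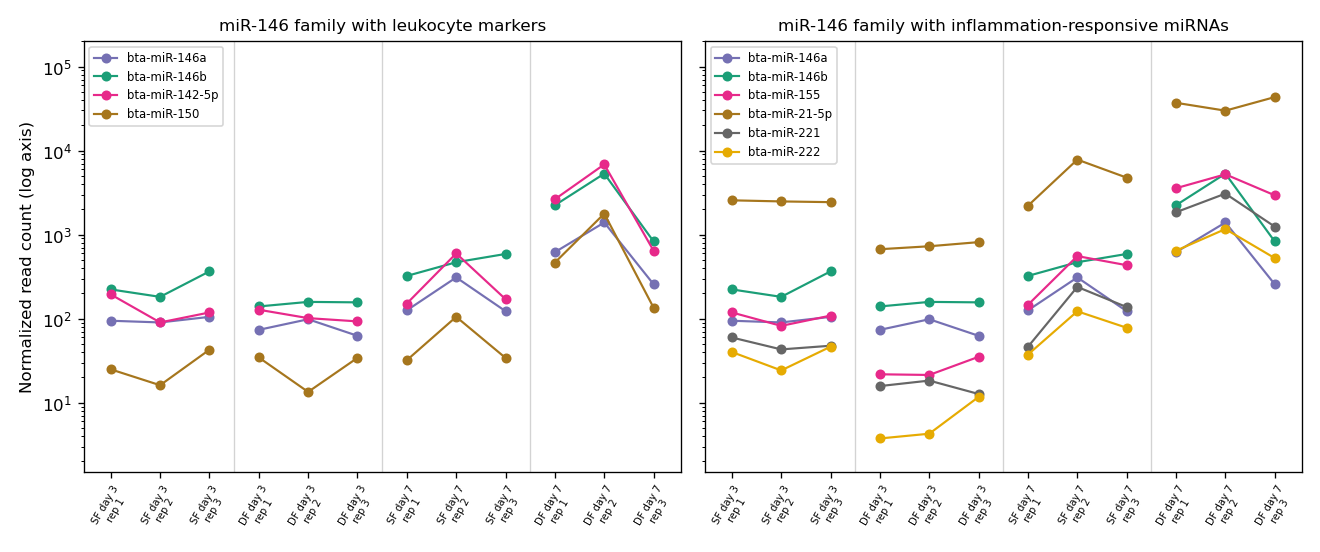
Normalized read counts in each of the 12 libraries on a log axis, for both members with 2 leukocyte markers (left) and with 4 inflammation-responsive miRNAs (right); lines join the libraries of a group and imply no order. In DF day 7, bta-miR-146a, bta-miR-146b, bta-miR-142-5p and bta-miR-150 peak in replicate 2, as do bta-miR-155, bta-miR-221 and bta-miR-222, while bta-miR-21-5p is lowest there.

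Between the follicle classes at day 7, 5 of the 12 listed miRNAs were called lower in SF and the other 7 did not pass, with a median log2 fold change of -1.34 (-1.45 without bta-miR-187, which had no read in DF) against -0.05 over all miRNAs tested. The 5 were bta-miR-155 at -3.30, bta-miR-21-5p at -2.81, bta-miR-21-3p at -3.04, bta-miR-221 at -3.80 and bta-miR-222 at -3.23. For all miRNAs tested, the share called lower in SF was 18.3%. At day 3, 6 of 11 were called higher in SF, among them bta-miR-155 at 1.96, bta-miR-21-5p at 1.71 and bta-miR-222 at 2.53, and the list had a median of 1.71 against -0.04 over all miRNAs tested. The members of miR-146, at 0.25 and 0.71, were below these at day 3. Of all miRNAs tested at day 3, 3.88% were called higher in SF. Between the days in SF, bta-miR-155 was the 1 of 12 called, at 1.89 (5 of 12 had an unadjusted p under 0.05, with 0 called without SF day 7 replicate 2 and 5 without SF day 7 replicate 1), and the median of the list was 0.97 against 0.03. The log2 fold changes of bta-miR-146a and bta-miR-146b, 0.97 and 0.87, were near that median. Between the days in SF, 0.297% of all miRNAs tested were called higher at day 7.

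The miRNAs with the profiles most like those of the family were found among 184 others with a mean of at least 10 normalized counts, by the root mean square difference of log2(normalized count + 1) over the 12 libraries after each profile was centred on its own mean. For bta-miR-146a these were bta-miR-181c at 0.46, bta-miR-146b at 0.50, bta-miR-365-3p at 0.53, bta-miR-27a-3p at 0.57 and bta-miR-181a at 0.59, against a median of 1.39 over all those compared. For bta-miR-146b the closest was bta-miR-146a, followed by bta-miR-23a at 0.56, bta-miR-181a at 0.60, bta-miR-130b at 0.61 and bta-miR-27a-3p at 0.63, against a median of 1.62. bta-miR-181a rose from a mean of 554 ± 89.9 normalized counts in DF at day 3 to 5538 ± 973 in DF at day 7 (SD, n = 3 each), and bta-miR-27a-3p from 77.4 ± 3.88 to 799 ± 109 (SD, n = 3 each). Their libraries of DF at day 7 were closer together than those of the miR-146 family. The likeness is a description over libraries that share depth and scaling and was not tested.

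**Figure D5:**
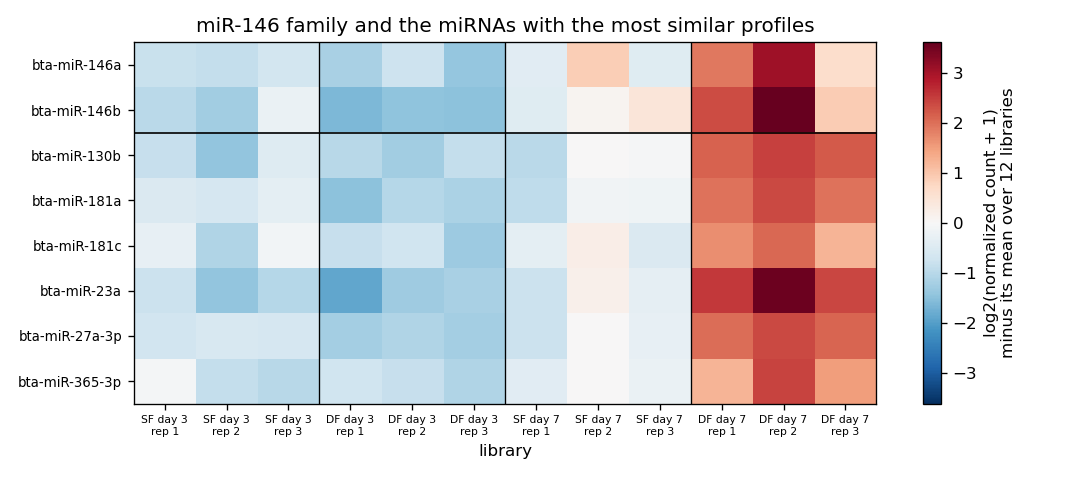
Log2(normalized count + 1) minus its mean over the 12 libraries, for both members (top) and the 6 miRNAs with the most similar profiles, with libraries as columns and red above and blue below the mean. All 8 have their highest library in DF day 7, and bta-miR-146a and bta-miR-146b vary more among these 3 libraries than bta-miR-181a or bta-miR-27a-3p.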

How the data were processed

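Granulosa cell small RNA of 12 samples was analysed. The authors base-called the reads with CASAVA 1.8.0, removed adapters with cutadapt, mapped the reads to the genome of cattle and assigned them to miRBase entries with miRDeep2, and deposited raw read counts per pair of mature miRNA and precursor, without normalization. Here 1 entry was kept for each of the 755 mature names, the one with most reads in total where a name had several (73 names), and groups were taken from the sample labels. miRNAs found with 1 or more reads in 2 or more of the 3 replicates of either group were tested by the edgeR 4.0.16 quasi-likelihood F test in R 4.3.3, two-sided, with median-of-ratios factors of the 6 libraries concerned (of all 12 for the interaction), a prior count of 0.125 and Benjamini-Hochberg adjustment over all miRNAs tested. Standard errors are the log2 fold change divided by the square root of F. Normalized counts use size factors over all 12 libraries, so their ratios can differ from the fitted fold changes. Depth was 160418 to 405129 reads per library. The procedure was tested on simulated data with less spread between replicates than the comparisons that include day 7. In those the common dispersion, a measure of that spread, was 0.0634 to 0.107. The simulation therefore does not show how the procedure performs at that spread.

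The members, the lists and the rule for the miRNAs named (both members, the listed miRNAs called in a comparison with DF day 7, the leukocyte markers, and the 5 most similar profiles per member) were chosen with earlier results of these data known. The counts of members per leukocyte marker, the spread of replicates and the listed miRNAs named at day 3 and in SF were added after their values were seen. Samples with equal replicate numbers deviated together in SF and DF at day 7, with correlations of 0.21, 0.27 and 0.16 over 132 miRNAs. This is a hint that the numbers pair these samples, which no label states. The fits reported are without the block, and the blocked values stand beside them for that comparison. In the other 3 comparisons at least 1 correlation was not above 0.1. Alternatives were DESeq2 1.42.0, other scaling and filters, all samples in one fit, other treatments of precursors, a replicate block, a false discovery rate of 5%, and leaving out each library. Whether replicates came from separate animals is not stated in the labels, so p values measure the spread between these samples. No mature sequence was used here.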

Additional observations from a re-analysis of the deposited data

Results flagged for a closer look

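The difference between SF and DF was not the same at day 3 and at day 7 for either member, by a test of that change itself over all 12 libraries. For bta-miR-146a the log2 difference of SF from DF moved by -2.32 from day 3 to day 7 (edgeR adjusted p = 0.0140), from 0.25 to -1.96 in the separate comparisons. For bta-miR-146b it moved by -3.36 (edgeR adjusted p = 0.000928), from 0.71 to -2.56. Groups of 3 libraries were taken as too small to test for single outlying libraries, and no such test was run.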

How the results depend on the processing

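Of the log2 fold changes of both members, every one kept its direction under all alternatives run, and none of the calls in DF at day 7 against either group of day 3, in SF against DF at day 7 or in the interaction changed under another tool, scaling, filter or block. Between DF at day 7 and day 3 the values were 2.98 to 3.29 for bta-miR-146a and 3.82 to 4.24 for bta-miR-146b. The one call of a member that did change was bta-miR-146a between SF at day 7 and DF at day 3, which was lost with library size alone (1.02), with all 12 samples in one fit (1.24), with counts summed over precursors (1.23) and at a false discovery rate of 5% (1.23), and ranged from 0.60 to 1.47 when single libraries were left out. Leaving out single libraries gave -2.56 to -1.15 for bta-miR-146a between SF and DF at day 7, with 3 of 6 calls kept, and for SF at day 7 against day 3 it gave 0.35 to 1.21 for bta-miR-146a and 0.66 to 1.19 for bta-miR-146b, with 1 and 2 of 6 called. The causes were not tested, beyond each fit having fewer libraries.

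With the replicate number as a block, no call of a member changed in any comparison. The log2 fold changes of bta-miR-146a and bta-miR-146b were then -1.78 and -2.23 between SF and DF at day 7, where equal numbers deviated together. Every sample correlated best with its own number there (6 of 6), as a hint from the data, against 2, 0 and 1 of 6 in SF against DF at day 3, DF between days and SF between days. The block moved the number of miRNAs called in SF between days from 2 to 7, and left 15 of 19, 115 of 117 and 137 of 145 in number in the other 3 comparisons.

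The number of miRNAs called between SF and DF at day 3 fell from 19 to 11 with DESeq2, to 12 with at least 10 reads in at least 3 samples to 8 with all samples in one fit and to 10 at the lowest without single libraries, and between DF at day 7 and day 3 from 145 to 92 with at least 10 reads. In SF between days, 2 became 5 with DESeq2, 12 without a filter, 0 with at least 10 reads, 1 with all samples in one fit, 10 with all entries and 0 to 20 without single libraries, and between SF at day 7 and DF at day 3, 21 became 13 at a false discovery rate of 5% and 9 to 34 without single libraries. The inflammation-responsive miRNAs called in SF between days were 4 with DESeq2, 5 without a filter, 5 with all entries, 3 with the block, 0 with at least 10 reads and 0 to 5 without single libraries, against 1. With at least 10 reads, 2 in place of 4 leukocyte markers were called between DF at day 7 and day 3, since 2 were too low to be tested. Scaling by library size alone shifted the median log2 fold change of all miRNAs by -0.14 in SF against DF at day 7 and by -0.13 in DF between days. At the depth of these libraries bta-miR-146a had as few as 64 reads, so counting error is part of the spread at day 3.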
